A study of Mus musculus with 31 samples.

Results

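The 31 genes described here encode the route from glucose to lactate and to the entry of pyruvate into mitochondria. Those that act on sugars are the glucose transporters Slc2a1 and Slc2a3, the hexokinases Hk1 and Hk2, the glucose-6-phosphate isomerase Gpi1, the phosphofructokinase-1 subunits Pfkl, Pfkm and Pfkp, the phosphofructokinase-2 enzymes Pfkfb2 and Pfkfb3, the aldolases Aldoa and Aldoc and the triosephosphate isomerase Tpi1. Those that lead on to pyruvate are Gapdh, Pgk1, Pgam1, the enolases Eno1 and Eno2 and the pyruvate kinase Pkm. Those that handle lactate and pyruvate are the lactate dehydrogenase subunits Ldha and Ldhb, the monocarboxylate transporters Slc16a1 and Slc16a3, the pyruvate dehydrogenase kinases Pdk1, Pdk2, Pdk3 and Pdk4, the pyruvate dehydrogenase E1 subunits Pdha1 and Pdhb, and the mitochondrial pyruvate carrier genes Mpc1 and Mpc2. They were chosen by name for their known roles. All 31 were listed in each of 21 RNA-seq libraries, among 24062 gene names in the 15 dentate gyrus libraries and 24322 in the 6 culture libraries.

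The dentate gyrus libraries came from Nestin-EGFP mice (C57BL/6), in which Nestin regulatory sequences drive a green fluorescent protein in neural stem and progenitor cells. EGFP-positive cells were isolated by fluorescence-activated sorting. MDZ P10 mice received midazolam, a benzodiazepine sedative that strengthens GABA-A receptor signalling, by intraperitoneal injection of 10 mg/kg on postnatal days 7, 8 and 9, and Control P10 mice received water on those days. Both were sampled at postnatal day 10. At 8 weeks there were RUN MDZ 8w (the same midazolam injections and a running wheel), MDZ 8w (midazolam without a wheel) and Control 8w (water without a wheel). No group of unexposed mice with a wheel was listed. The Egr1 culture and Control culture libraries came from wild-type ICR neural stem cells, taken from embryonic day 11 cortex, passaged more than 20 times and grown in bFGF and EGF at 20 ng/ml each. Both cultures carried a lentivirus for the M2rtTA transactivator, and Egr1 culture also carried one for Flag-tagged Egr1, a zinc finger transcription factor. Each of the 7 groups had 3 libraries. A P10 library was 50000 cells of 1 mouse, and an 8-week library was about 30000 cells pooled from 3 to 5 mice. The labels do not say that the culture libraries were separate cultures, so p-values there measure only the spread between these libraries, which may be technical.

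Glycolysis splits glucose into pyruvate with a small yield of ATP. Pyruvate is then either reduced to lactate by lactate dehydrogenase or carried into mitochondria and oxidised by the pyruvate dehydrogenase complex, which pyruvate dehydrogenase kinases switch off. Lactate dehydrogenase is a tetramer of LDHA and LDHB subunits, and forms rich in LDHA are classically tied to lactate production and forms rich in LDHB to lactate use. In the brain, astrocytes and proliferating neural stem and progenitor cells are known for a high glycolytic rate, lactate passes between cells through monocarboxylate transporters, and the blood vessel wall carries much of the glucose transporter Slc2a1.

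Values are FPKM at P10 and TPM at 8 weeks and in culture, both scaled per length, so levels were compared between genes within a library and never between the 2 units. P10 libraries listed 17623 to 18470 genes above 0, and relative to the deepest of them their depth ran from 0.571. The culture libraries listed 15537 to 15998 genes above 0 and had a relative depth of 0.899 or more. No depth could be read for the 8-week files. At 8 weeks the RUN MDZ 8w libraries listed 15568 to 15906 genes above 0, the MDZ 8w libraries 15382 to 16709 and the Control 8w libraries 11163 to 11397. Of 8476 genes above 20 TPM in every MDZ 8w library, 91 (1.07%) were listed at 0 in every Control 8w library, so a 0 there is given as a listed value only. Of the genes detected in either of Control 8w replicates 2 and 3, 97.4% were detected in both, and genes at 20 to 50 TPM had log2 ratios with a robust SD of 0.265. With replicate 1 the same shares were 78.4% and 77.8% and the SDs 1.44 and 1.35. Replicates 2 and 3 were therefore averaged into 1 sample, which left n = 2 for Control 8w. Nes was 9.19 to 10.1 FPKM in MDZ P10 and 8.71 to 11.1 FPKM in Control P10. At 8 weeks Nes was 39.2 to 60.7 TPM in RUN MDZ 8w, 43.8 to 85.6 TPM in MDZ 8w and 12.2 to 26.1 TPM in Control 8w, and in culture it was 320.2 to 419.6 TPM in Egr1 culture and 176 to 199 TPM in Control culture. The sorted cells were not free of vessel transcripts, since the endothelial junction gene Cldn5 was 42.5 to 50.6 FPKM in MDZ P10 and 44.1 to 52.6 FPKM in Control P10, while Cldn5 was listed at 0 in all 6 culture libraries.

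The brain-type aldolase Aldoc, an astrocyte-rich enzyme, had the highest level of the 31 genes in MDZ P10 (546, 534 and 505 FPKM) and in Control P10 (507, 434 and 491 FPKM). It also ranked first in RUN MDZ 8w (1249.5, 1446 and 1050.3 TPM) and in MDZ 8w (1053, 1037 and 854 TPM), whereas in Control 8w (748, 525 and 479.9 TPM) it ranked second by mean to the pyruvate kinase gene Pkm (601, 639 and 726 TPM). The ranges of Aldoc and Pkm overlapped in Control 8w, so their order there is not resolved. In culture Pkm ranked first, at 1066, 1102 and 1003 TPM in Egr1 culture and 1372, 1327 and 1306 TPM in Control culture, and Aldoc was far lower, at 79.1, 90.4 and 74.8 TPM and 106, 109 and 98.3 TPM in the same groups. Together the 31 genes made up 0.597% to 0.613% of the summed level in MDZ P10 libraries and 0.544% to 0.595% in Control P10 libraries. Their share was 0.453% to 0.496% in RUN MDZ 8w, 0.373% to 0.463% in MDZ 8w and 0.383% to 0.404% in Control 8w, and it was 0.634% to 0.676% in Egr1 culture and 0.630% to 0.641% in Control culture.

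Aldoa, the ubiquitous aldolase, was 117 to 121 FPKM in MDZ P10 and 100.2 to 115 FPKM in Control P10, and 901 to 1057 TPM in Egr1 culture and 892 to 943 TPM in Control culture. Tpi1, which interconverts the triose phosphates, was 55.1 to 61.3 FPKM in MDZ P10 and 51.0 to 58.1 FPKM in Control P10, and 561 to 585 TPM in Egr1 culture and 547 to 567 TPM in Control culture. Hk1, the constitutive hexokinase, was 16.8 to 18.5 FPKM in MDZ P10 and 17.1 to 19.3 FPKM in Control P10, and 44.4 to 54.4 TPM in Egr1 culture and 46.0 to 48.8 TPM in Control culture. At 8 weeks Aldoa was 335 to 414 TPM in RUN MDZ 8w, 311 to 446 TPM in MDZ 8w and 442 to 508 TPM in Control 8w. Pgk1 and Pgam1 act between Gapdh and the enolases. Pgk1 was 68.1 to 85.6 TPM in RUN MDZ 8w, 66.9 to 123 TPM in MDZ 8w and 57.0 to 125 TPM in Control 8w, with overlapping ranges. Pgam1 was 127 to 153 TPM in RUN MDZ 8w, 91.0 to 127 TPM in MDZ 8w and 40.3 to 102 TPM in Control 8w, with every RUN MDZ 8w library above every Control 8w library.

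Eno1, the ubiquitous enolase, was listed at 0 in all 15 dentate gyrus libraries and was 14.6, 1.96 and 8.32 TPM in Egr1 culture and 4.67, 1.83 and 2.29 TPM in Control culture. Eno1b, its near-identical copy, was 39.4, 40.9 and 39.4 FPKM in MDZ P10 and 35.4, 37.0 and 38.1 FPKM in Control P10. At 8 weeks Eno1b was 106 to 124 TPM in RUN MDZ 8w, 68.5 to 143 TPM in MDZ 8w and 51.5 to 99.7 TPM in Control 8w, and in culture it was 896, 966 and 801 TPM in Egr1 culture and 1248, 1223 and 1218 TPM in Control culture. Reads of the 2 genes cannot be told apart in these values, so Eno1 levels are uncertain and no enolase share was computed. Eno1b is not a member, so the members' shares of the summed level given above leave it out. As Eno1b was lower in every Egr1 culture library, those shares do not show whether the pathway as a whole differed in culture. Gapdh has many processed copies in the mouse genome, and its values are uncertain for the same reason.

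The culture comparison asked what added Egr1 changed in neural stem cells. The 3 largest changes that passed were in lactate and pyruvate handling: Ldhb rose 2.09-fold, the lactate and pyruvate transporter Slc16a1 2.74-fold and the pyruvate dehydrogenase kinase Pdk2 2.05-fold in Egr1 culture. The mitochondrial pyruvate carrier moved in opposite directions, with Mpc1 lower and Mpc2 higher, and Pkm, Pfkm, Aldoc, Slc2a3 and Pdha1 fell. Egr1 itself was 1769, 1390.3 and 1291 TPM in Egr1 culture, against 361, 285 and 344 TPM in Control culture, and a gene-level value does not separate the added transcript from the cells' own. Of the 29 genes tested (mean of at least 1 in the fit), 6 rose and 6 fell at an adjusted p below 0.05 (limma-trend on log2(value + 1), Benjamini-Hochberg over 12402 genes). Among all genes tested in this comparison 15.2% rose and 29% fell, and the members' share called, 41.4%, was close to the 44.2% of all genes, so the number of calls is not a result about this pathway. Their median log2 difference was 0.03, against -0.10 for all genes. Groups without overlap were common in culture. Of all 12402 genes tested, 2278 were higher and 4605 lower in Egr1 culture without overlap, and of the 29 members tested 7 and 8.

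Both lactate dehydrogenase subunits were among the more abundant members in culture. Ldhb, the H subunit, was 1036, 942 and 979.9 TPM in Egr1 culture, against 472, 469 and 477 TPM in Control culture (log2 difference 1.06 ± 0.05 SE, limma, adjusted p = 2.15e-06). Ldha, the M subunit, was 807, 869 and 760.1 TPM in Egr1 culture, against 882, 877 and 880.3 TPM in Control culture (log2 difference -0.12 ± 0.06 SE, limma, adjusted p = 0.146). Every Egr1 culture library was above every Control culture library for Ldhb and below every one for Ldha, but only the Ldhb difference passed. Ldha therefore made up 43.8, 48.0 and 43.7% of the summed level of the 2 subunits in Egr1 culture, against 65.2, 65.1 and 64.8% in Control culture, a difference of -19.9 percentage points. The groups did not overlap (two-sided exact permutation test, p = 0.1), and 0.1 is the smallest p that 3 against 3 libraries can give. Here and below, 30 such tests of shares were made over 6 shares and 5 comparisons, and none could reach 0.05 before or after adjustment.

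Of the monocarboxylate transporters, which move lactate and pyruvate across the plasma membrane with a proton, Slc16a1 was 92.8, 79.9 and 81.6 TPM in Egr1 culture and 29.1, 30.2 and 33.6 TPM in Control culture (log2 difference 1.42 ± 0.08 SE, limma, adjusted p = 4.35e-06). The lowest Egr1 culture library was above the highest Control culture library by more than the range within either group. Slc16a3, which exports lactate from strongly glycolytic cells, stayed under the filter, at 0.570, 0.602 and 0.686 TPM in Egr1 culture and 0.707, 0.535 and 0.528 TPM in Control culture.

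The 4 kinases that phosphorylate and switch off pyruvate dehydrogenase differed among themselves. Pdk2, the widely expressed form, was 48.4, 51.4 and 41.7 TPM in Egr1 culture and 24.3, 22.3 and 22.4 TPM in Control culture (log2 difference 1.00 ± 0.09 SE, limma, adjusted p = 4.89e-05). Pdk3 was the most abundant of the 4 in both groups and rose less, to 61.2, 60.0 and 57.1 TPM in Egr1 culture, against 46.4, 46.4 and 51.9 TPM in Control culture (log2 difference 0.30 ± 0.07 SE, limma, adjusted p = 0.00877). Pdk1, a hypoxia-responsive form, was 9.74, 9.29 and 8.74 TPM in Egr1 culture and 9.01, 8.77 and 11.8 TPM in Control culture, with overlapping ranges (adjusted p = 0.663, limma). Pdk4, the form induced by fasting, was under the filter, at 0.191, 0.331 and 0.283 TPM in Egr1 culture and 0.0365, 0.188 and 0.236 TPM in Control culture. Of the E1 subunits that these kinases act with, the catalytic alpha subunit gene Pdha1 fell to 231, 234 and 212 TPM in Egr1 culture, against 255, 280.0 and 296 TPM in Control culture (log2 difference -0.30 ± 0.07 SE, limma, adjusted p = 0.00897). The beta subunit gene Pdhb averaged 157 ± 3.17 TPM in Egr1 culture and 154 ± 4.22 TPM in Control culture (SD, n = 3 each; adjusted p = 0.726, limma).

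MPC1 and MPC2 form the carrier that takes pyruvate through the inner mitochondrial membrane, and both proteins are needed for transport. Mpc1 fell to 72.2, 78.5 and 87.0 TPM in Egr1 culture, against 121, 143 and 133 TPM in Control culture (log2 difference -0.73 ± 0.09 SE, limma, adjusted p = 0.000237). Mpc2 rose to 168, 155 and 181 TPM in Egr1 culture, against 124, 122 and 128 TPM in Control culture (log2 difference 0.43 ± 0.07 SE, limma, adjusted p = 0.00120). Neither gene's groups overlapped, and the 2 carrier genes, which were near the same level in Control culture, stood apart in Egr1 culture.

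Among the genes from glucose uptake to pyruvate, the changes that passed were smaller than 1.5-fold. The transporter Slc2a1 rose to 51.8, 44.4 and 46.2 TPM in Egr1 culture, against 39.8, 37.9 and 39.0 TPM in Control culture (log2 difference 0.28 ± 0.08 SE, limma, adjusted p = 0.0165). Its call was lost without Control culture replicate 2 (adjusted p = 0.0546) or without Egr1 culture replicate 1 (adjusted p = 0.0635). Slc2a3, the neuronal high-affinity transporter, fell to 4.17, 4.90 and 3.92 TPM in Egr1 culture, against 6.23, 5.55 and 5.97 TPM in Control culture (log2 difference -0.38 ± 0.12 SE, limma, adjusted p = 0.0274). Its call was lost in 4 of the 6 fits that left out 1 library (adjusted p = 0.0674 to 0.0877). The 2 transporters thus moved in opposite directions, with no overlap between groups for either, a separation that was common among all genes in culture.

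Hexokinases trap glucose in the cell. Hk2, the inducible form, was 8.22, 6.65 and 6.47 TPM in Egr1 culture and 5.17, 5.17 and 6.25 TPM in Control culture, without overlap but short of the threshold (adjusted p = 0.0759, limma). Pfkm, the muscle-type phosphofructokinase-1 subunit, fell to 83.1, 79.9 and 72.1 TPM in Egr1 culture, against 114, 105 and 105 TPM in Control culture (log2 difference -0.46 ± 0.07 SE, limma, adjusted p = 0.000996). Its share of the 3 subunits was 48.2, 50.0 and 48.7% in Egr1 culture, against 55.9, 56.8 and 56.4% in Control culture. The platelet-type Pfkp took 8.60, 8.46 and 8.64% in Egr1 culture, against 6.37, 6.07 and 6.12% in Control culture (two-sided exact permutation test, p = 0.1 for both shares, the smallest possible). The Pfkm share was chosen after the values were seen. Pfkfb3, which makes the activator fructose 2,6-bisphosphate, was 19.3, 19.4 and 16.4 TPM in Egr1 culture and 18.4, 17.7 and 18.7 TPM in Control culture (adjusted p = 0.977, limma), so no difference was seen beyond the spread.

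From the aldolases on, Aldoc and Pkm, with per-library values given above, had log2 differences of -0.35 ± 0.08 SE (limma, adjusted p = 0.00741) and -0.34 ± 0.06 SE (limma, adjusted p = 0.00150). Gapdh was 128, 128 and 122 TPM in Egr1 culture and 139, 138 and 139 TPM in Control culture, lower in all 3 Egr1 culture libraries and short of the threshold (adjusted p = 0.0640, limma). Eno1 had a log2 difference of 1.01 that did not pass (adjusted p = 0.156, limma), with Egr1 culture libraries from 1.96 to 14.6 TPM. Its copy Eno1b was lower, at 801 to 966 TPM in Egr1 culture and 1218 to 1248 TPM in Control culture. Eno1 alone therefore gives no direction for the 2 copies together. Aldoa, Tpi1, Pgk1, Pgam1, Eno2, Gpi1, Hk1, Pfkl, Pfkp and Pfkfb2 also did not pass, with log2 differences from -0.14 (Pfkfb2) to 0.19 (Pfkp).

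The scaling bears on the balance of these calls. With median-of-ratios scaling the median log2 difference of all genes was 0.01 in place of -0.10, and 2781 genes were higher and 2708 lower in Egr1 culture, in place of 1888 and 3598. Under it 11 members were higher and 6 lower, Aldoa, Gpi1, Hk2, Pfkp and Pgam1 being added to the higher ones. The 12 members called with the deposited scaling were called in the same direction under it.

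Egr1 is known to bind the GC-rich motif GCGTGGGCG. Promoter windows of the members (250 bases before to 50 after a RefSeq start, GRCm38.p6, 47 windows of 30 matched genes) were searched on both strands for that motif and for GCGGGGGCG. They were also searched for ACGTG, the core of the hypoxia response element, which lies within the E-box CACGTG and is then counted on each strand. GCGTGGGCG was in 0.612% of all 32851 windows and in 2 of the 47 member windows, those of Pfkp and Pfkfb2, neither of which passed in culture. GCGGGGGCG was in 2.91% of all windows and in none of the members'. ACGTG was in 19.6% of all windows and in 22 of the 47 member windows (46.8%), from 18 genes. Member windows also had a higher GC content (median 62%, against 52.7% for all windows) and more CG pairs (median 20, against 7). The windows of the 3 genes with the largest passing changes in culture are shown with that of Ldha, the partner of Ldhb, and that of Pfkp, which holds the Egr motif. Capitals mark ACGTG or its reverse complement in the first 4 and GCGTGGGCG in the last. The Slc16a1 window is chr3:104638414-104638713 (plus strand), Ldhb chr6:142507908-142508207 (minus), Pdk2 chr11:95041322-95041621 (minus), Ldha chr7:46845554-46845853 (plus) and Pfkp chr13:6648722-6649021 (minus), each read 5′ to 3′ on the gene's strand.
Slc16a1: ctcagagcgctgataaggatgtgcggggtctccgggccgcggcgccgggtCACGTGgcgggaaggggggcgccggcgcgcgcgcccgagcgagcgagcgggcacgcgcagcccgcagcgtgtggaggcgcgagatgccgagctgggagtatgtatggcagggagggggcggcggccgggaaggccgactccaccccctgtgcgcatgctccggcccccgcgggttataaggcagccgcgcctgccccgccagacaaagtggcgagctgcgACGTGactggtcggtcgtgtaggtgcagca
Ldhb: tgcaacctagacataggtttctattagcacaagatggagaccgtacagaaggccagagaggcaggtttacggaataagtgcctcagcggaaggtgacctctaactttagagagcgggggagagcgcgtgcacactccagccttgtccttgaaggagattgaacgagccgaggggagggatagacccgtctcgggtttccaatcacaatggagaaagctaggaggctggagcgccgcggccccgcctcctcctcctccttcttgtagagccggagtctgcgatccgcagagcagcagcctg
Pdk2: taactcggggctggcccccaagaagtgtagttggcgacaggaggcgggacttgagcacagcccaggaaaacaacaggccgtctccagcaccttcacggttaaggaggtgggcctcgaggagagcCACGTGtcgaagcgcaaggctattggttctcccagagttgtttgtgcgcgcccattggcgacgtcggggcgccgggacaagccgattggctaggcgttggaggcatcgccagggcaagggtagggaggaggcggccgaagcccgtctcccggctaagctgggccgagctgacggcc
Ldha: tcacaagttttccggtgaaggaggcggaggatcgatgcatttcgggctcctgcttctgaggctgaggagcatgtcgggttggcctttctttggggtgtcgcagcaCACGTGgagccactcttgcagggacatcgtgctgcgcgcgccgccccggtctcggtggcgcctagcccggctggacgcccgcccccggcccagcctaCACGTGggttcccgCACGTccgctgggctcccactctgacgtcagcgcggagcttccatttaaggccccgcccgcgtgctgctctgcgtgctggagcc
Pfkp: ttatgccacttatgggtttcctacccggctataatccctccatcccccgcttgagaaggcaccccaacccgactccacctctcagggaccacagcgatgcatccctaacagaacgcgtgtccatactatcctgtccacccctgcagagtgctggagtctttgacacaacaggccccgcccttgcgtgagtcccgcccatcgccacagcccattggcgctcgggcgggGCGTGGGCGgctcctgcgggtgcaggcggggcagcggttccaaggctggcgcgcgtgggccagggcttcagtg
In the windows shown, Slc16a1 held 3 matches to ACGTG counted on both strands, Pdk2 2 and Ldha 5, and Ldhb held none of the motifs searched. Pdk2 and Ldha each had another window, not shown, that held none of these motifs. A match describes the letters only, and no binding data were used here.

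The genes next to the members in the same metabolism also changed in culture, mostly downward with the deposited scaling. Under it 15.2% of all genes tested rose and 29% fell, with a median log2 difference of -0.10. That balance of all genes moved with the scaling, as given above. Of the other glycolysis and lactate genes, 2 rose and 8 fell of 13 tested, with a median log2 difference of -0.31. The muscle enolase gene Eno3 rose to 39.9, 31.6 and 35.9 TPM in Egr1 culture, against 5.11, 3.51 and 4.11 TPM in Control culture (log2 difference 2.82 ± 0.13 SE, limma, adjusted p = 1.39e-06). The phosphoglucomutase gene Pgm1 fell to 24.2, 26.1 and 21.4 TPM in Egr1 culture, against 34.0, 38.7 and 36.8 TPM in Control culture (log2 difference -0.59 ± 0.09 SE, limma, adjusted p = 0.000939). Pgam2 and Adpgk fell as well, by 1.04 and by 0.49 on the log2 scale. Of the other pyruvate dehydrogenase and pyruvate entry genes, 2 rose and 7 fell of 11 tested, with a median of -0.35. Pdp1, a phosphatase that reverses the action of the kinases, was 19.6, 18.9 and 17.3 TPM in Egr1 culture and 5.41, 6.03 and 7.34 TPM in Control culture (log2 difference 1.44 ± 0.12 SE, limma, adjusted p = 2.55e-05). The other that rose was Pdpr, the regulatory subunit of that phosphatase (log2 difference 0.47). Pck2, which makes phosphoenolpyruvate, and Me1, which makes pyruvate from malate, fell by 0.91 and by 0.50 on the log2 scale.

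Hypoxia response genes, many of which share a regulator with glycolytic genes, divided evenly, with 8 higher and 8 lower of 23 tested. Among all genes tested 15.2% were higher and 29% lower. The median log2 difference of the list was 0.03, against -0.10 for all genes. Ndrg1 was 8.75, 7.48 and 5.74 TPM in Egr1 culture and 0.442, 0.136 and 0.477 TPM in Control culture (limma, adjusted p = 9.3e-06). Angptl4, a secreted inhibitor of lipoprotein lipase, was 22.7, 21.2 and 20.4 TPM in Egr1 culture and 5.45, 3.01 and 3.16 TPM in Control culture (limma, adjusted p = 2.06e-05). Adm, the vasodilator peptide gene, fell to 54.6, 57.0 and 52.5 TPM in Egr1 culture, against 118, 108 and 110.1 TPM in Control culture (log2 difference -1.02 ± 0.06 SE, limma, adjusted p = 6.31e-06). Mxi1 rose by a log2 difference of 0.98.

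Cell-state markers moved in the same comparison, in which 15.2% of all genes tested rose and 29% fell. The summed level of 8 mature neuron markers was 431 to 533 TPM in Egr1 culture and 74.5 to 81.8 TPM in Control culture, with 5 of 7 tested higher and 1 lower. The 10 proliferation markers summed to 2352 to 2579 TPM in Egr1 culture and 3059 to 3251 TPM in Control culture, with 7 lower and none higher. The 14 endothelial markers summed to 10.4 to 12.6 TPM in Egr1 culture and 18.9 to 21.5 TPM in Control culture, with Cldn5 listed at 0 throughout. The 12 astrocyte and radial glia markers summed to 2602 to 3013 TPM in Egr1 culture and 3462 to 3994 TPM in Control culture, with 4 higher and 3 lower of 11 tested. Of 10 oligodendrocyte lineage markers 7 were tested, 4 of them higher (Mbp and Cnp among them) and 3 lower (Olig1 and Cspg5 among them). Their sums were 1026 to 1164 TPM in Egr1 culture and 1739 to 1842 TPM in Control culture. Mog was listed at 0 in all 3 Egr1 culture libraries, and Sox10 in all 3 Control culture libraries. The part of these markers in the members' changes was not tested.

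**Figure D1:**
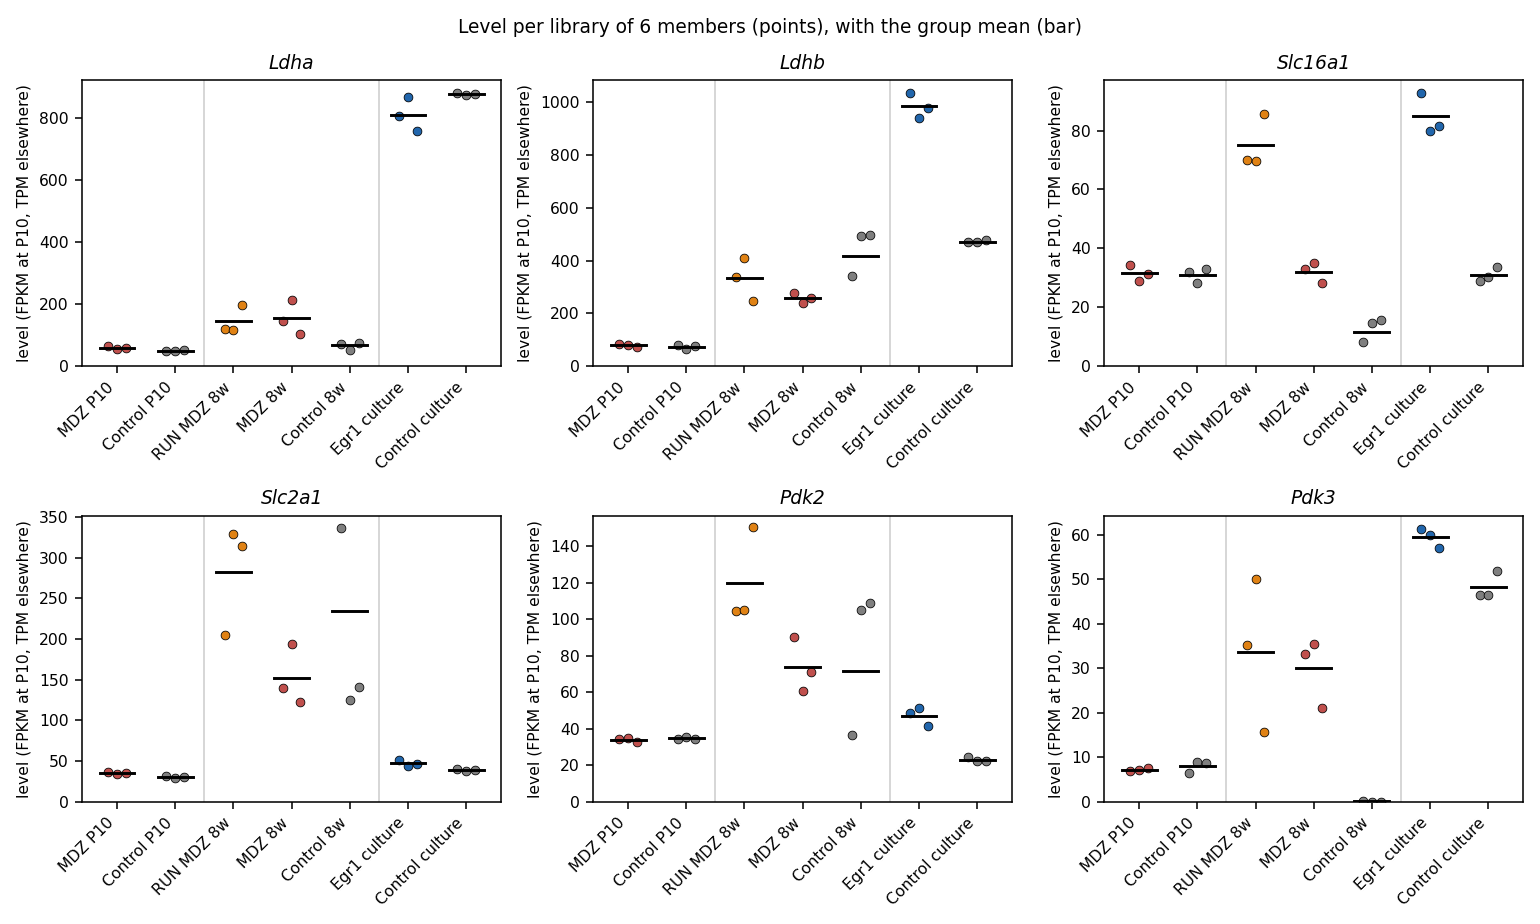
Level of 6 members in each library (points; FPKM at P10, TPM at 8 weeks and in culture) with the group mean (bar; Control 8w replicates 2 and 3 enter it as 1 sample). Ldhb, Slc16a1 and Pdk2 are higher in every Egr1 culture library than in every Control culture library, and Pdk3 lies at or near 0 in Control 8w.

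The P10 comparison asked what midazolam had changed by the day after the last injection. Differences were small: none of the 29 genes tested passed in either direction (limma-trend, Benjamini-Hochberg over 12914 genes). Among all genes tested, 0% rose and 0.00774% fell, so the absence of calls does not set these genes apart. At an unadjusted p below 0.05 there were 3 of 29 members, against 12.2% of all genes, which is no more than the background. These were Eno2, Slc2a1 and Ldha, each higher in all 3 MDZ P10 libraries. MDZ P10 libraries were all above Control P10 libraries for 6 tested members and all below for 1, against 12.2% and 6.61% of all genes tested. These counts of 6 and 1 of 29 were not tested against that background and are not read as a result about the members. The median log2 difference of the members was 0.03, against 0.01 for all genes.

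Slc2a1, the glucose transporter of the blood vessel wall and of astrocytes, was 35.8, 34.2 and 35.1 FPKM in MDZ P10 and 31.2, 29.6 and 30.3 FPKM in Control P10 (log2 difference 0.20 ± 0.05 SE, limma, adjusted p = 0.227). Eno2, the neuronal enolase, was 6.37, 5.91 and 6.64 FPKM in MDZ P10 and 4.98, 5.09 and 5.07 FPKM in Control P10 (log2 difference 0.27 ± 0.06 SE, limma, adjusted p = 0.220). Ldha was 64.4, 54.7 and 59.6 FPKM in MDZ P10 and 47.9, 48.9 and 53.7 FPKM in Control P10 (log2 difference 0.24 ± 0.07 SE, limma, adjusted p = 0.293). In these 3 genes the lowest MDZ P10 library was above the highest Control P10 library, a separation that 12.2% of all genes also showed.

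Ldhb was 85.4, 81.9 and 71.9 FPKM in MDZ P10 and 78.7, 67.2 and 78.5 FPKM in Control P10, with overlapping ranges. The Ldha share of the 2 subunits was 43.0, 40.0 and 45.3% in MDZ P10 and 37.8, 42.1 and 40.6% in Control P10 (two-sided exact permutation test, p = 0.3). Pfkl, the liver-type phosphofructokinase-1 subunit which had the third of the largest differences, was 21.1, 16.0 and 20.9 FPKM in MDZ P10 and 16.3, 16.5 and 16.4 FPKM in Control P10 and rested on MDZ P10 replicates 1 and 3 (adjusted p = 0.432, limma). Gpi1, Pfkm and Aldoa were the other tested members with all MDZ P10 libraries higher, with log2 differences of 0.08, 0.14 and 0.13. Pdha1 was the 1 member with all of them lower, at 28.4, 28.9 and 28.3 FPKM in MDZ P10 and 29.9, 30.0 and 31.5 FPKM in Control P10 (log2 difference -0.09 ± 0.05 SE, limma, adjusted p = 0.473).

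The remaining tested members overlapped between groups at P10. Hk2 was 2.02, 2.02 and 2.31 FPKM in MDZ P10 and 2.15, 2.06 and 2.26 FPKM in Control P10, and Pfkfb3 was 21.6, 19.9 and 23.8 FPKM in MDZ P10 and 23.1, 20.8 and 22.5 FPKM in Control P10. Gapdh was 17.0, 16.3 and 15.9 FPKM in MDZ P10 and 16.7, 15.7 and 16.5 FPKM in Control P10, and Pkm was 118, 116 and 114 FPKM in MDZ P10 and 117, 107 and 117 FPKM in Control P10. Slc16a1 was 34.3, 29.1 and 31.2 FPKM in MDZ P10 and 32.1, 28.2 and 33.0 FPKM in Control P10, and Pdk4 was 7.76, 8.36 and 7.09 FPKM in MDZ P10 and 8.14, 6.88 and 7.09 FPKM in Control P10. The log2 differences of these 6 genes lay between -0.03 (Pfkfb3) and 0.06 (Pdk4). Slc16a3, untested because its mean was under 1, was 0.760, 0.832 and 0.977 FPKM in MDZ P10 and 0.424, 0.591 and 0.739 FPKM in Control P10.

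None of the neighbouring pathway lists had a gene that passed at P10, and their median log2 differences ran from -0.09 (12 glycogen genes) to 0.02 (7 pentose phosphate genes). Of the 12 pericyte and smooth muscle markers, 11 had a negative difference and none passed, with a summed level of 219 to 242 FPKM in MDZ P10 and 259 to 302 FPKM in Control P10. The 14 endothelial markers summed to 113 to 138 FPKM in MDZ P10 and 117 to 139.8 FPKM in Control P10. Of 10 proliferation markers 7 had a positive difference and none passed. Their sums were 183.8 to 194.8 FPKM in MDZ P10 and 163.6 to 183.7 FPKM in Control P10. Whether these differences have a part in the members' values was not tested. In bulk samples, fewer cells of a type and less RNA per cell cannot be told apart, here and at 8 weeks.

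**Figure D2:**
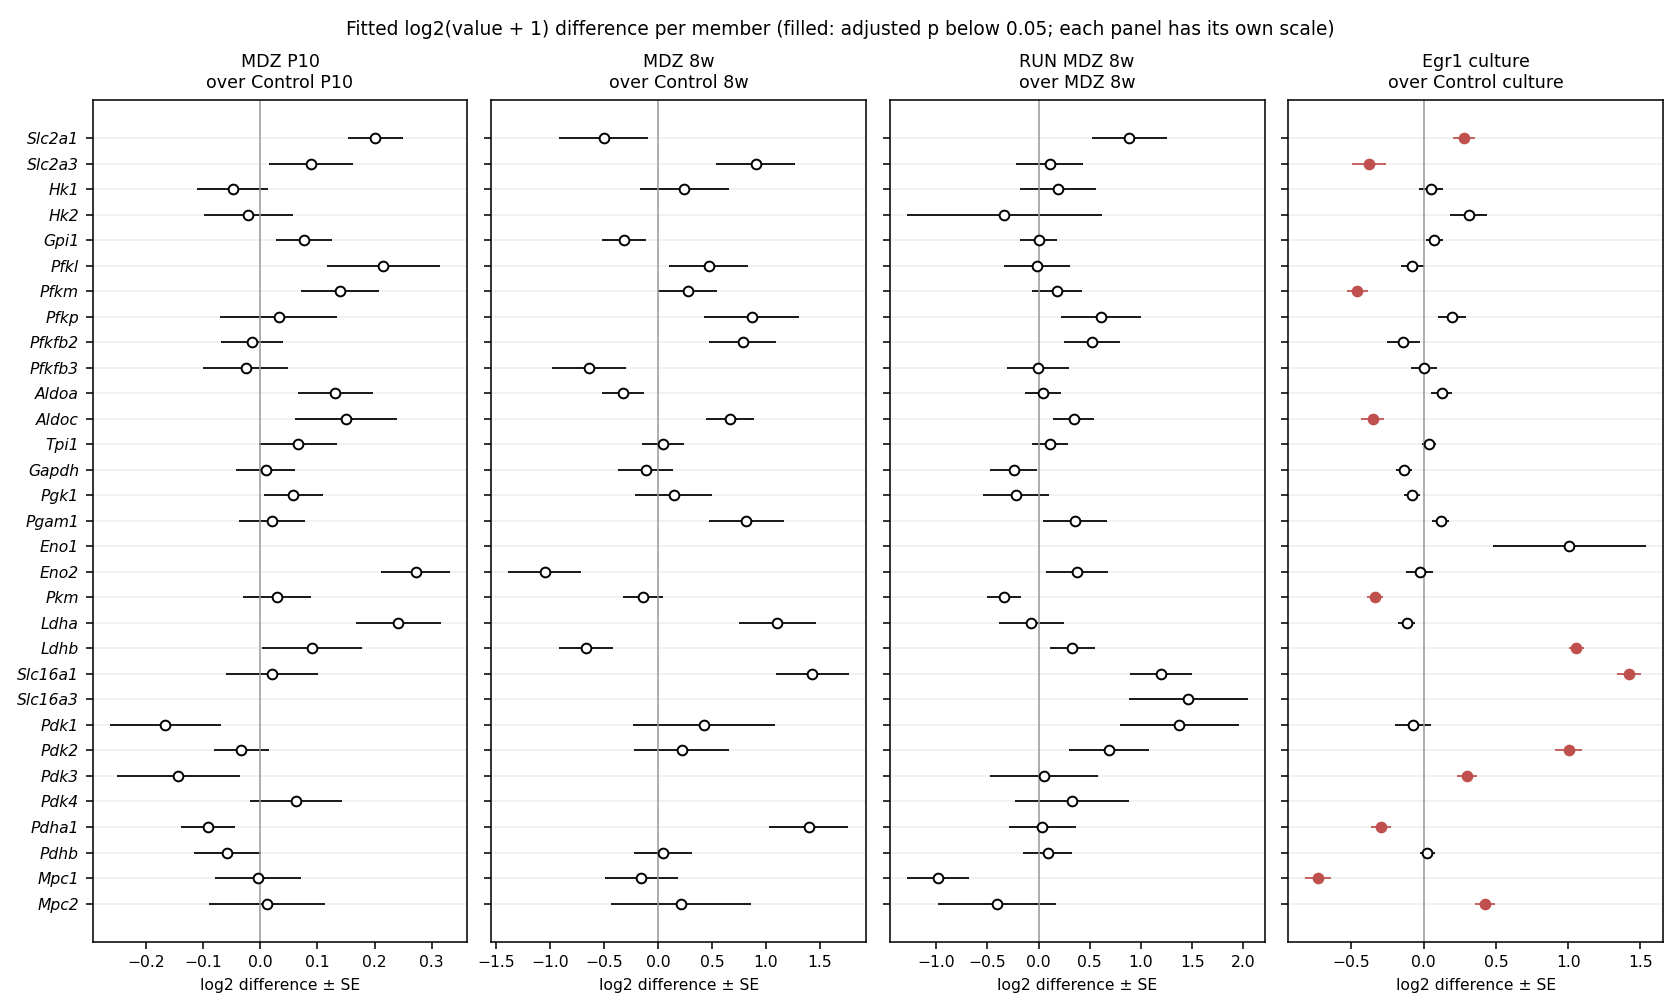
Fitted log2(value + 1) difference ± SE of each member in 4 comparisons, each panel with its own scale; filled points passed at an adjusted p below 0.05. Members under the filter, and members listed at 0 in at least 2 Control 8w libraries (Hk2, Slc16a3, Pdk3 and Pdk4 in the MDZ 8w panel), have no point.

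At 8 weeks the comparison of MDZ 8w with Control 8w asked what remained of the neonatal exposure in the adult. Of 30 genes tested, 2 passed as higher in MDZ 8w, the pyruvate dehydrogenase kinases Pdk3 and Pdk4, and none passed as lower. Among all 15264 genes tested 4.68% rose and 0.452% fell, so 2 of 30 is near the background and not a result about the pathway. The median log2 difference was 0.26 for the members and 0.36 for all genes, and with quantile normalization, which moved the median of all genes to -0.06, the members' median was 0.18. At an unadjusted p below 0.05 there were 11 of 30 members, against 22.8% of all genes.

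Both calls rest on Control 8w libraries listed at or near 0. Pdk3 was 33.3, 35.5 and 21.1 TPM in MDZ 8w and 0.0738, 0 and 0 TPM in Control 8w (limma, adjusted p = 0.00445). Pdk4 was 5.74, 7.85 and 5.88 TPM in MDZ 8w and was listed at 0 in all 3 Control 8w libraries (limma, adjusted p = 0.0396). No fold is given for either, since other genes had such zeros too. Of the genes above 20 TPM in every MDZ 8w library, 1.07% were listed at 0 in every Control 8w library. This share covers neither call, as Pdk4 did not reach that level and Pdk3 was at 0.0738 TPM in Control 8w replicate 1. Between Control 8w replicate 1 and replicates 2 and 3, 2141 and 2261 genes were above 5 TPM in 1 library and at 0 in the other. Within MDZ 8w there were 116 to 171 such genes between libraries. Pdk3 was not called with quantile normalization (adjusted p = 0.156) or library quality weights (adjusted p = 0.197). Pdk4 was not called in 8 of 18 alternatives. These were quantile normalization (adjusted p = 0.563), library quality weights (0.593), a pseudocount of 5 (0.135), no filter (0.0642), and the fits without any one of the MDZ 8w replicates (0.126 to 0.152) or without RUN MDZ 8w replicate 3 (0.0569). Pdk1 was 13.1, 6.23 and 13.4 TPM in MDZ 8w and 3.45, 15.3 and 14.8 TPM in Control 8w. Pdk2 was 90.1, 60.8 and 71.0 TPM in MDZ 8w and 36.4, 105 and 109 TPM in Control 8w. In both genes Control 8w replicate 1 lay far below replicates 2 and 3 and the ranges overlapped.

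Among the larger differences short of the threshold were those in lactate transport, the E1 alpha subunit and lactate dehydrogenase. Slc16a1 was 33.0, 35.2 and 28.1 TPM in MDZ 8w and 8.23, 14.6 and 15.8 TPM in Control 8w (log2 difference 1.43 ± 0.34 SE, limma, adjusted p = 0.0543). Pdha1 was 95.9, 123 and 73.0 TPM in MDZ 8w and 51.0, 27.8 and 21.6 TPM in Control 8w (log2 difference 1.40 ± 0.37 SE, limma, adjusted p = 0.0728). Ldha was 145, 215 and 103 TPM in MDZ 8w and 72.0, 52.7 and 76.2 TPM in Control 8w (log2 difference 1.11 ± 0.36 SE, limma, adjusted p = 0.124). All MDZ 8w libraries were above all Control 8w libraries in the 3 genes. Such separation was common in this comparison. Of all 15264 genes tested, 3997 were higher and 1537 lower without overlap, and of the 30 members tested 9 and 4.

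Ldhb lay the other way, at 278, 242 and 258 TPM in MDZ 8w and 343, 494 and 496 TPM in Control 8w (log2 difference -0.67 ± 0.25 SE, limma, adjusted p = 0.169). Ldha made up 34.3, 47.1 and 28.5% of the 2 subunits in MDZ 8w, against 17.3, 9.64 and 13.3% in libraries of Control 8w, a difference of 22.2 percentage points between means. The groups did not overlap, and the two-sided exact permutation test gave p = 0.2 with n = 3 and n = 2, the smallest p that it can give there. Aldoc was higher in every MDZ 8w library (log2 difference 0.67 ± 0.22 SE, limma, adjusted p = 0.133), with a share of the 2 aldolases of 74.8, 69.9 and 73.3% in MDZ 8w, against 62.7, 54.3 and 48.6% in Control 8w (two-sided exact permutation test, p = 0.2, again the smallest). Eno2, the neuronal enolase, was 32.8, 23.2 and 32.1 TPM in MDZ 8w and 47.9, 76.3 and 79.2 TPM in Control 8w (log2 difference -1.05 ± 0.34 SE, limma, adjusted p = 0.126).

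For the members at the start of the pathway, Control 8w replicate 1 often stood apart from replicates 2 and 3. Slc2a1 was 139.9, 194 and 122 TPM in MDZ 8w and 336, 125 and 142 TPM in Control 8w (log2 difference -0.50, adjusted p = 0.493, limma), and the sign of its difference turned without Control 8w replicate 1 (log2 difference 0.16). That replicate also had the highest endothelial marker sum of the 3, at 795 TPM, against 589 and 592 TPM in replicates 2 and 3. Hk2 was 6.19, 10.3 and 8.42 TPM in MDZ 8w and 12.5, 0 and 0 TPM in Control 8w. Pfkfb3 was 36.4, 35.5 and 33.8 TPM in MDZ 8w and 65.1, 49.0 and 45.1 TPM in Control 8w, lower in every MDZ 8w library and short of the threshold (adjusted p = 0.307, limma). Pkm in MDZ 8w was 545, 718 and 505 TPM and overlapped Control 8w, and Gapdh was 66.7, 80.1 and 53.5 TPM in MDZ 8w and 80.5, 52.5 and 73.4 TPM in Control 8w.

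Without Control 8w replicate 1, 7 members were higher in MDZ 8w (Aldoc, Hk2, Mpc2, Pdha1, Pdk3, Pdk4, Slc16a1) and 2 lower (Eno2, Ldhb), while the shares of all genes were 15.1% higher and 3.83% lower. That fit leaves the mean of 2 near-identical libraries as the only control sample, which was assumed to vary like the other groups. Cell type markers also differed between these groups. All 12 astrocyte and radial glia markers had a positive difference and Mlc1, Fabp7, Hopx and Slc1a3 rose, with sums of 3675 to 4377 TPM in MDZ 8w and 1886 to 2088 TPM in Control 8w, where Aldh1l1 was listed at 0 in replicate 1. Of 12 neuroblast and granule neuron markers 11 had a negative difference and Neurod1 and Prox1 fell, with sums of 5047 to 7352 TPM in MDZ 8w and 8729 to 9133 TPM in Control 8w. The 8 microglia markers summed to 71.6 to 217 TPM in MDZ 8w and to 0.178, 207 and 211 TPM in Control 8w replicates 1 to 3, with 6 of the 8 listed at 0 in replicate 1. Of 12 pericyte and smooth muscle markers 9 had a negative difference and Vtn fell, with sums of 880 to 1455 TPM in MDZ 8w and 2439 to 3821 TPM in Control 8w, where Myh11 and Col1a1 were listed at 0 in replicates 2 and 3. Their part in the differences of Aldoc, Eno2 and the other members was not tested.

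In the neighbouring lists 3 genes passed in this comparison, all higher in MDZ 8w. They were 1 of 13 glycogen genes tested and 2 of 25 hypoxia response genes. None passed of 19 other glycolysis and lactate genes or 11 other pyruvate dehydrogenase and pyruvate entry genes. The 7 pentose phosphate and 16 tricarboxylic acid cycle genes had none either. Among all genes tested 4.68% rose and 0.452% fell, so the count is not read as a result about these lists. Ppp1r3c, a targeting subunit that promotes glycogen synthesis, was 35.0, 38.0 and 34.4 TPM in MDZ 8w and 0, 1.73 and 1.24 TPM in Control 8w. Ero1l, an oxidase of the endoplasmic reticulum, was 27.9, 26.2 and 22.4 TPM and Adm was 26.3, 17.5 and 30.3 TPM in MDZ 8w. Ero1l and Adm were listed at 0 in all 3 Control 8w libraries, as Pdk4 was. Their adjusted p-values (limma) were 0.00326 for Ppp1r3c, 0.00225 for Ero1l and 0.00296 for Adm.

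**Figure D3:**
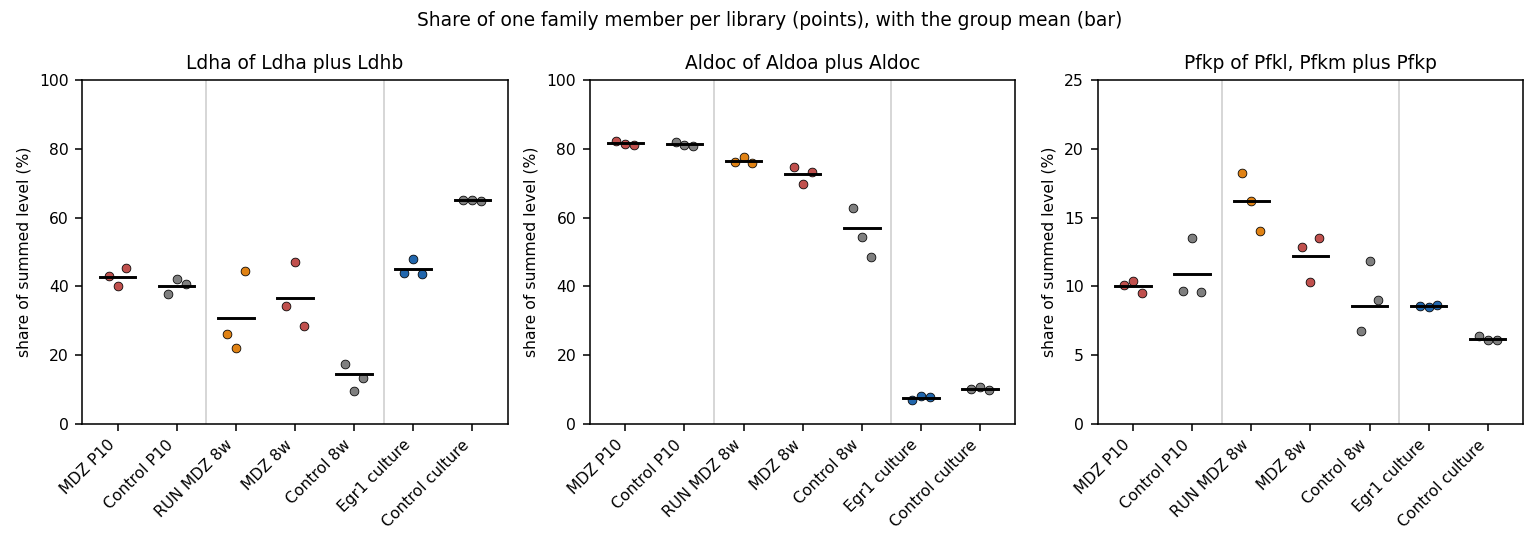
Share of Ldha, Aldoc and Pfkp in the summed level of their families per library (points, percent) with the group mean (bar; Control 8w replicates 2 and 3 enter it as 1 sample). The Ldha share is lower in every Egr1 culture library than in every Control culture library and higher in every MDZ 8w library than in every Control 8w library.

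The comparison of RUN MDZ 8w with MDZ 8w asked what a running wheel changed in exposed mice. No member passed among the 30 tested (limma-trend, one fit over all 8-week samples). In this comparison 0.0524% of all genes rose and 0.105% fell. At an unadjusted p below 0.05 there were 5 of 30 members, against 9.98% of all genes. All RUN MDZ 8w libraries were above all MDZ 8w libraries for 7 members and below for 2, against 14.4% and 10.5% of all genes tested. These counts of 7 and 2 of 30 were not tested against that background and are not read as a result about the members. The 7 were Slc2a1, Pfkp, Pfkfb2, Slc16a1, Slc16a3, Pdk1 and Pdk2, and the 2 were Pkm and Mpc1. The members' median log2 difference was 0.11, against 0.05 for all genes.

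Slc16a1 was 69.9, 69.6 and 85.5 TPM in RUN MDZ 8w, against 33.0, 35.2 and 28.1 TPM in MDZ 8w, 2.34-fold higher by the means (log2 difference 1.20 ± 0.30 SE, limma, adjusted p = 0.204). It was called in 3 other fits without a block, those with library quality weights (adjusted p = 0.0239), with only these 2 groups (adjusted p = 0.024) and without Control 8w replicate 1 (adjusted p = 0.031). Without any 1 of the MDZ 8w libraries its adjusted p was 0.491 to 0.64. All 3 RUN MDZ 8w libraries were far above the highest MDZ 8w library. Slc16a3 was 5.25, 9.34 and 3.25 TPM in RUN MDZ 8w and 1.43, 0.526 and 2.53 TPM in MDZ 8w (log2 difference 1.46 ± 0.58 SE, limma, adjusted p = 0.453).

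Slc2a1 was 205, 329.6 and 314 TPM in RUN MDZ 8w and 139.9, 194 and 122 TPM in MDZ 8w (log2 difference 0.89 ± 0.37 SE, limma, adjusted p = 0.476). Pdk1 was 33.2, 32.1 and 21.7 TPM in RUN MDZ 8w and 13.1, 6.23 and 13.4 TPM in MDZ 8w (log2 difference 1.38 ± 0.58 SE, limma, adjusted p = 0.491). Mpc1 was 45.4, 61.5 and 28.5 TPM in RUN MDZ 8w and 76.4, 106 and 78.4 TPM in MDZ 8w (log2 difference -0.98 ± 0.30 SE, limma, adjusted p = 0.298). The 2 groups did not overlap in these genes, and the differences did not pass after adjustment. Pfkp was 50.1, 42.3 and 40.0 TPM in RUN MDZ 8w and 33.7, 22.4 and 30.7 TPM in MDZ 8w, and Pdk2 was 104, 105 and 150.2 TPM in RUN MDZ 8w and 90.1, 60.8 and 71.0 TPM in MDZ 8w.

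Ldha was 120.1, 116 and 199 TPM in RUN MDZ 8w and Ldhb 339, 411 and 248 TPM, both overlapping MDZ 8w. The Ldha share was 26.2, 22.0 and 44.5% in RUN MDZ 8w, against 34.3, 47.1 and 28.5% in MDZ 8w (two-sided exact permutation test, p = 0.5). The Aldoc share of the aldolases was 76.2, 77.8 and 75.8% in RUN MDZ 8w, against 74.8, 69.9 and 73.3% in MDZ 8w. The Pfkp share of phosphofructokinase-1 was 18.2, 16.2 and 14.1% in RUN MDZ 8w, against 12.9, 10.3 and 13.5% in MDZ 8w. Both shares were separate between the groups (two-sided exact permutation test, p = 0.1 for each, the smallest possible). Pdk4 was 4.67, 15.3 and 7.71 TPM, Hk2 5.30, 12.3 and 3.57 TPM and Pfkfb3 24.4, 38.4 and 46.0 TPM in RUN MDZ 8w, all overlapping MDZ 8w. Pkm was 476, 431 and 480.1 TPM in RUN MDZ 8w, below every MDZ 8w library (log2 difference -0.33 ± 0.16 SE, limma, adjusted p = 0.569), and Gapdh was 52.8, 56.6 and 57.3 TPM in RUN MDZ 8w.

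Several marker lists had unequal summed levels in RUN MDZ 8w and MDZ 8w. All 14 endothelial markers had a positive difference and 5 rose, among them Flt1, Cldn5, Abcb1a and Cdh5. Their sums were 1319 to 1738 TPM in RUN MDZ 8w, 467 to 605 TPM in MDZ 8w and 589 to 795 TPM in Control 8w. All 12 pericyte and smooth muscle markers had a positive difference and Acta2 rose, with sums of 2390 to 3530 TPM in RUN MDZ 8w, 880 to 1455 TPM in MDZ 8w and 2439 to 3821 TPM in Control 8w. All 10 oligodendrocyte lineage markers had a positive difference and none passed, with sums of 5513 to 7945 TPM in RUN MDZ 8w, 1596 to 5591 TPM in MDZ 8w and 1278 to 3891 TPM in Control 8w. No marker of these 3 lists was listed at 0 in RUN MDZ 8w or MDZ 8w. Of 10 proliferation markers 7 had a negative difference and none passed, with sums of 730.4 to 864 TPM in RUN MDZ 8w and 1142 to 1705 TPM in MDZ 8w. All 8 microglia markers had a negative difference and none passed, with sums of 20.8 to 113 TPM in RUN MDZ 8w and 71.6 to 217 TPM in MDZ 8w. The microglia sums overlapped, the proliferation sums did not, and C1qc and Aif1 were listed at 0 in RUN MDZ 8w replicates 1 and 2. Slc2a1 and Slc16a1 are both known from brain endothelium as well as from astrocytes and oligodendrocytes, and the part of these markers in the members' differences was not tested.

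**Figure D4:**
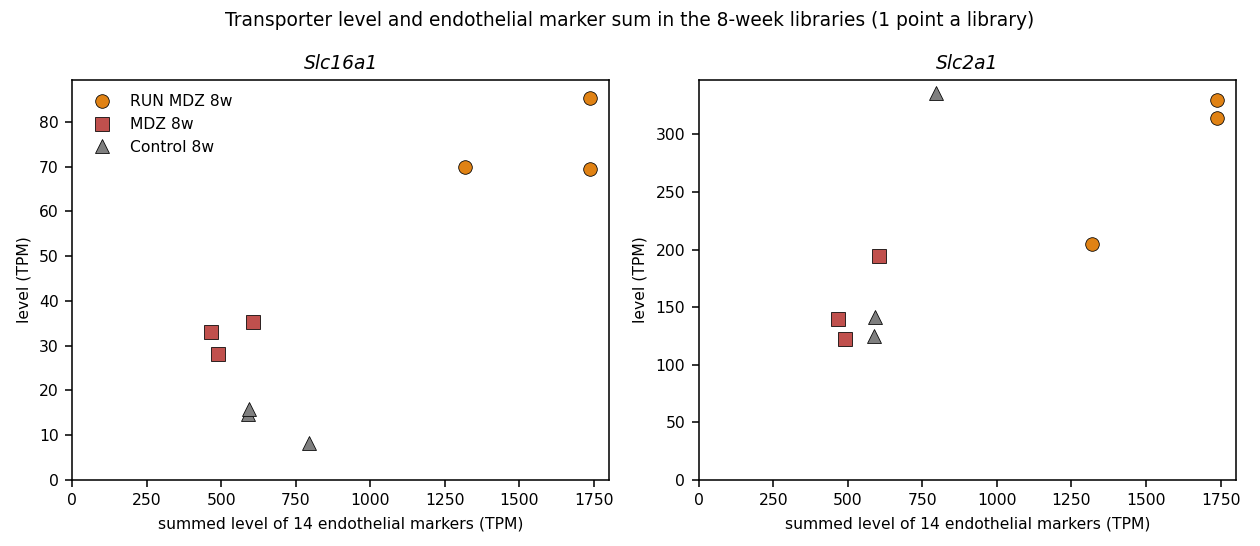
Level of Slc16a1 and of Slc2a1 (TPM) against the summed level of 14 endothelial markers (TPM) in the 9 libraries at 8 weeks, 1 point a library. The RUN MDZ 8w libraries lie at 1319 to 1738 TPM of marker sum and at the highest Slc16a1, and the MDZ 8w and Control 8w libraries lie at marker sums of 467 to 795 TPM.

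RUN MDZ 8w was also set against Control 8w, a comparison that shares its controls with that of MDZ 8w, so the 2 are given side by side and not as separate support. Here 7 of 30 members rose and none fell, against 9.41% and 1.9% of all genes tested, and the members' share called was 23.3%, against 11.3% of all genes. Their median log2 difference was 0.46, against 0.51. The 7 were Slc16a1, Slc16a3, Pdk3, Pdk4, Pdha1, Aldoc and Pfkfb2, and none of them was called with library quality weights or in a fit of these 2 groups alone, where no gene at all was called. Slc16a1, Pdk3 and Pdk4 were called in each of the 9 fits that left out 1 library, and Aldoc, Pdha1, Pfkfb2 and Slc16a3 were not called without any 1 of the MDZ 8w libraries. Slc16a3 was also not called without Control 8w replicate 1 or without RUN MDZ 8w replicate 1 or 2. Aldoc was likewise not called without RUN MDZ 8w replicate 1 or 2. Pdha1 and Pfkfb2 were not called without any 1 of the RUN MDZ 8w libraries either. Slc16a1 at 75.0 ± 9.07 TPM in RUN MDZ 8w (SD, n = 3) was 6.39-fold above the 11.7 ± 4.94 TPM of Control 8w (SD, n = 2; log2 difference 2.63 ± 0.34 SE, limma, adjusted p = 0.00431), and its log2 difference in MDZ 8w was 1.43. The order of levels was RUN MDZ 8w, MDZ 8w and Control 8w, with no overlap between neighbours, though neither step between neighbours passed.

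Pfkfb2, a maker of fructose 2,6-bisphosphate, was 47.2, 46.2 and 45.8 TPM in RUN MDZ 8w, 33.2, 30.9 and 32.2 TPM in MDZ 8w and 14.5, 23.3 and 22.2 TPM in Control 8w (log2 difference 1.30 ± 0.31 SE, limma, adjusted p = 0.0347). Its 3 groups had the same order as those of Slc16a1, again without overlap and with neither step between neighbours passing. Aldoc averaged 1249 ± 198 TPM in RUN MDZ 8w (SD, n = 3) and 625 ± 174 TPM in Control 8w (SD, n = 2; log2 difference 1.01 ± 0.22 SE, limma, adjusted p = 0.0278). Pdha1 was 87.6, 87.1 and 122 TPM in RUN MDZ 8w (log2 difference 1.43 ± 0.37 SE, limma, adjusted p = 0.0454), a range that overlapped MDZ 8w and not Control 8w. Pdk3 was 35.1, 50.0 and 15.7 TPM in RUN MDZ 8w (limma, adjusted p = 0.00336). Pdk4 and Slc16a3, with values given above, were listed at 0 in every Control 8w library (limma, adjusted p = 0.0174 for Pdk4 and 0.0367 for Slc16a3). Beside these calls, all 14 endothelial markers had a positive difference and 9 rose, all 12 astrocyte and radial glia markers did and 7 rose, 5 of 10 oligodendrocyte lineage markers rose and 6 of 12 neuroblast and granule neuron markers fell. Their part in the members' differences was not tested.

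In the neighbouring lists, 3 of 13 glycogen genes tested and 3 of 25 hypoxia response genes rose in RUN MDZ 8w over Control 8w. So did 2 of 19 other glycolysis and lactate genes and 1 of 16 tricarboxylic acid cycle genes. Of the hypoxia response genes 1 fell. None passed of 7 pentose phosphate genes or 11 other pyruvate dehydrogenase and pyruvate entry genes. Among all genes tested 9.41% rose and 1.9% fell, so these counts are not read as a result about the lists. Ugp2, which makes the glucose donor for glycogen, was 122, 115 and 130.0 TPM in RUN MDZ 8w and 70.3, 52.8 and 50.8 TPM in Control 8w (log2 difference 1.00 ± 0.25 SE, limma, adjusted p = 0.0414). Ddit4, an inhibitor of mTORC1 signalling, fell in RUN MDZ 8w to 134, 204 and 151 TPM, where Control 8w libraries had 284, 331 and 333 TPM (log2 difference -0.93 ± 0.22 SE, limma, adjusted p = 0.0367). Ero1l, Adm, Car9, Stbd1 and Pgam2 were listed at 0 in every Control 8w library. None of these lists had a gene that passed between RUN MDZ 8w and MDZ 8w.

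Across the 3 settings, Slc16a1 overlapped between MDZ P10 and Control P10 (log2 difference 0.02 ± 0.08 SE) and was 2.74-fold apart in culture. At 8 weeks its 3 groups were separate, as was common among all genes. Its difference passed for RUN MDZ 8w over Control 8w (limma, adjusted p = 0.00431). It did not pass for MDZ 8w over Control 8w (limma, adjusted p = 0.0543) or RUN MDZ 8w over MDZ 8w (limma, adjusted p = 0.204). The Ldha share differed in opposite directions, with every MDZ 8w library above every Control 8w library and every Egr1 culture library below every Control culture library. At 8 weeks neither subunit's difference passed, and in culture that of Ldhb did. Pdha1 was higher in every MDZ 8w library than in every Control 8w library and lower in every Egr1 culture library than in every Control culture library. These settings differ in age, source and unit, and the differences between them were not tested.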

How the data were processed

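RNA-seq values of 21 libraries were used, and 10 chromatin samples were not analysed here. The unit was read from the deposited numbers. The authors deposited FPKM for P10, where library sums were 241508 to 252344, and TPM for the other libraries, where sums were about 1000000. The submitters' processing notes name mm10, TopHat, Bowtie2 and DESeq2 without role; which program and gene models gave these tables, and whether strand was used, is not stated. No counts were used, so depth is known only as the relative depth read from steps of low values, and genes with near-identical copies are uncertain.

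Groups came from the labels. Differences were tested with limma-trend (limma 3.58.1, R 4.3.3) on log2(value + 1) over genes whose mean over the libraries fitted was 1 or more, with Benjamini-Hochberg adjustment over all of them and a threshold of 0.05. On this scale low genes show less than their true fold. P10 and culture were fitted with their 6 libraries each, and the 8-week samples in one fit, with Control 8w replicates 2 and 3 as their mean. Shares within families were compared with exact permutation tests (scipy 1.17.1). The share of Pfkm was added after the data were seen, and that of Eno2 was not computed. The fits were tested on simulated data with independent normal noise. That simulation held no outlying library and no zeros particular to a group, so it does not cover these features of Control 8w. Replicate numbers did not pair the samples: deviations of same-numbered libraries correlated at -0.08, 0.12 and 0.11 at P10, at 0.02, -0.03 and -0.05 in culture and at 0.13, 0.07 and -0.02 between RUN MDZ 8w and MDZ 8w.

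All 31 members could be named, with values in every library for those that passed, for the 3 largest differences of a comparison and for Slc2a1, Hk2, Pfkfb3, Aldoc, Gapdh, Pkm, Ldha, Ldhb, Slc16a1 and Pdk4, and at most 4 passing genes of each other list by adjusted p. The members and lists were chosen with earlier results of these data known. Promoter windows are from RefSeq (GRCm38.p6) and 30 of the 31 members matched. Alternatives were pseudocounts of 0.1 and 5, no filter, 2 other scalings, library quality weights, leaving out each library, a replicate block, Control 8w replicates 2 and 3 kept apart, and fits of only the 2 groups compared.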

Additional observations from a re-analysis of the deposited data

Results flagged for a closer look

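For 3 members all 3 libraries moved one way with midazolam at postnatal day 10 and the opposite way at 8 weeks, with no overlap between MDZ and Control libraries at either age. Of all 12850 genes tested at both ages, 2.89% showed such a reversal, against 3 of 29 members. Eno2 had a log2 difference of 0.27 between MDZ P10 and Control P10 and of -1.05 between MDZ 8w and Control 8w. Gpi1 had log2 differences of 0.077 at P10 and -0.31 at 8 weeks. Pdha1 had log2 differences of -0.092 at P10 and 1.40 at 8 weeks. The difference between ages was not tested for any of them, since the ages came in different units, and no value passed after adjustment at either age. At 8 weeks the neuroblast and granule neuron markers lay lower in MDZ 8w than in Control 8w beside the neuronal gene Eno2, and their part in its value was not tested.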

How the results depend on the processing

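No member call reversed under any alternative, and 2168 of the member values kept direction and side of the threshold, 63 lost a call, 40 gained one and 102 that were not called changed sign. In culture 10 of the 12 called members (all but Slc2a1 and Slc2a3) were called under all 13 alternatives, and the number of members called stayed within 1.5 times. At 8 weeks most alternatives moved the counts, and the cause was not tested. MDZ 8w over Control 8w gave 2 members and 783 genes called. It gave 1410 genes with a pseudocount of 0.1, 1 member and 461 genes with 5, 1 member without a filter, 0 members and 152 genes with quantile normalization, 0 and 19 with quality weights, and 6 and 1787 with Control 8w replicates 2 and 3 kept apart; leaving out 1 library gave 1 to 9 members and 207 to 2928 genes, the highest without Control 8w replicate 1. RUN MDZ 8w over MDZ 8w gave 0 members and 24 genes called. It gave 1 member and 432 genes with quality weights, 122 genes with replicates 2 and 3 kept apart, 1 and 360 with only the 2 groups compared, and 0 to 1 members and 0 to 275 genes without 1 library, the highest again without Control 8w replicate 1. RUN MDZ 8w over Control 8w gave 7 members and 1727 genes called. It gave 2 and 406 with quantile normalization, 0 and 0 with quality weights or only the 2 groups, 2904 genes with replicates 2 and 3 kept apart, and 3 to 7 members and 910 to 3952 genes without 1 library, the most genes without Control 8w replicate 1. At P10 no member was called under any alternative, and 1 gene was called; it was 2 with a pseudocount of 5, 0 with median-of-ratios scaling, 4 with quantile normalization, 5 with quality weights, and 0 to 101 without 1 library, the 101 without Control P10 replicate 2, the shallowest.

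The replicate numbers did not pair the samples. With the replicate block, 0 genes were called at P10, 12 members in culture (Eno1 in place of Slc2a3), 4 members and 1227 genes for MDZ 8w over Control 8w with replicates 2 and 3 kept apart, 3 members (Slc16a1, Slc2a1 higher, Mpc1 lower) and 634 genes for RUN MDZ 8w over MDZ 8w with only those groups, and 8 members and 2595 genes for RUN MDZ 8w over Control 8w. No depth could be read for the 8-week libraries, so what it limits there is unknown.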

Other observations

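Genes of metabolic routes that branch from glycolysis were also called in culture, where 15.2% of all genes tested rose and 29% fell. The counts of calls are given beside that background and are not read as a result about these routes. Of 7 pentose phosphate genes, 2 rose and 3 fell in Egr1 culture. G6pdx, the first and rate-setting enzyme of that route, fell to 67.4, 68.7 and 62.1 TPM in Egr1 culture, against 101, 93.8 and 102 TPM in Control culture (log2 difference -0.57 ± 0.07 SE, limma, adjusted p = 0.000196), while Rpia, which interconverts its pentose products, rose to 20.2, 20.4 and 17.7 TPM in Egr1 culture, against 10.7, 14.1 and 11.8 TPM in Control culture (log2 difference 0.64 ± 0.11 SE, limma, adjusted p = 0.00202). Taldo1 rose and Rpe fell, with log2 differences of 0.26 and -0.30. Of 12 glycogen genes tested, 3 rose and 5 fell. Stbd1, which tethers glycogen to membranes, rose to 15.6, 14.5 and 17.2 TPM in Egr1 culture, against 3.93, 2.67 and 2.87 TPM in Control culture (log2 difference 2.02 ± 0.14 SE, limma, adjusted p = 8.71e-06). Gyg, the primer of glycogen, Gys1, the synthase, and Ppp1r3c fell, with log2 differences of -0.62, -0.64 and -0.46.

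Of 16 tricarboxylic acid cycle genes, 2 rose and 3 fell in Egr1 culture, against 15.2% and 29% of all genes tested. Their median log2 difference was -0.04, against -0.10 for all genes. Idh3b and Sdhc rose, with log2 differences of 0.47 and 0.45, and Suclg2 and Idh2 fell, with log2 differences of -0.69 and -0.44 (limma, adjusted p = 0.000119, 0.000335, 0.000154 and 0.000603 in that order). At 8 weeks all 13 glycogen genes had a positive difference in MDZ 8w over Control 8w, with a median of 0.57 against 0.36 for all genes, and Ppp1r3c alone passed. The fumarase gene Fh1 was 82.8, 129.9 and 75.8 TPM in RUN MDZ 8w and 0.181, 18.7 and 26.9 TPM in Control 8w, where replicate 1 lay far below the others (log2 difference 4.15 ± 1.04 SE, limma, adjusted p = 0.0421).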
